A study of Ambystoma californiense with 99 samples.

Results

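Heated tiger salamander brains did not all carry the same amount of hsp90aa1.1 mRNA, and the brains with much of it were set here against the brains with little. The strong class held 11 heated brains and the weak class 9, together 20 of the 99 libraries of the series. Heated brains were chosen by their level of the feature AMEXTC_0340000124769, named hsp90aa1.1, as strong where it reached at least 200 counts in each 1000000 reads of the library (CPM) and as weak below that. Brains of the backcross genotypes and libraries under 1000000 reads were not classed. A heated F1 brain that has no column of counts could not be classed either. The classes therefore come from a measured value and not from a treatment. The hsp90aa1.1 levels of the classes in brain are given as a description with no test between them. The brain level enters a test only in its relation to leg muscle of the same animals, which the rule did not use. A p-value for another gene between strong and weak concerns its difference between classes made by the hsp90aa1.1 level. It does not measure how closely the gene followed that level.

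HSP90 proteins are ATP-dependent chaperones that fold and stabilise kinases, steroid receptors and other client proteins. Vertebrates make a heat-inducible cytosolic form and a constitutive cytosolic form, and hsp90aa1.1 is the name of an inducible form in zebrafish. When proteins unfold in a heated cell, heat shock factor 1 is released from its chaperone complexes and switches on the genes of inducible HSP90, HSP70, DNAJ co-chaperones and small heat shock proteins together.

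The study took whole brain and leg muscle from California tiger salamanders, tagged CTS, from animals tagged BTS, taken here to be barred tiger salamanders, from F1 hybrids and from backcrosses. Heated animals were warmed acutely until they no longer righted themselves when laid on their backs, and control animals were not heated. RNA was sequenced from polyadenylated transcripts with a stranded kit, and every library is a separate animal and tissue. The organism field gives Ambystoma californiense for all samples, whatever the genotype. The strong brains came from 2 CTS, 3 BTS and 6 F1 animals, 7 of them female and 4 male. The weak brains came from 3 CTS, 3 BTS and 3 F1 animals, 6 female and 3 male. The 23 control brains came from 5 CTS, 5 BTS and 13 F1 animals. Heated leg muscle of the same animals gave 10 libraries of strong animals and 9 of weak animals, and the muscle of 21 animals tagged control in both tissues served as background. No age is given for any of these groups.

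No difference in make-up between strong and weak brains passed a test. Fisher's exact test, two-sided, gave p = 1.0 for sex and p = 0.625 for genotype. Library totals were 3213005 to 13506066 reads in strong brains, 3685718 to 7695595 reads in weak brains and 4281647 to 9319243 reads in control brains. The mean log2 total differed by 0.0072 between strong and weak brains, with p = 0.980 in an exact permutation test. The summed level of 26 neuron marker features was 9854, 14879 and 17603 CPM (lowest, median, highest) in strong brains and 14240, 16711 and 19105 CPM in weak brains. That difference was -0.17 in log2 and missed the threshold at p = 0.0547 in the exact permutation test. The lowest of the strong sums belonged to CTS animal 7, and the test was not repeated without that brain. Neuron markers were abundant in every brain library, as the tissue label says.

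Some libraries stand apart. The strong brain of CTS animal 7 held much more RNA of skeletal muscle genes than the rest: the 31 skeletal muscle features summed to 2874 CPM there, and the next highest strong brain had 126 CPM. Over the classes the sums were 46.6, 80.2 and 2874 CPM in strong brains, 55.1, 58.3 and 113 CPM in weak brains and 45.4, 65.5 and 410 CPM in the 23 control brains. The difference in sums did not pass the exact permutation test, with p = 0.366 for all brains and p = 0.666 without animal 7. In weak brains 5 of the 31 features had no read, 3 named TTN together with neb.L and myh8. In control brains 3 of the 31 had none, all named TTN, and in strong brains each feature had a read in some library. Animal 64 is tagged control in brain and heated in muscle, and its brain had 624.1 CPM of hsp90aa1.1, so the main results against controls are given with and without it. The weak brain of animal 76 is tagged CTS, but its title says BTS. The muscle library of strong animal 11 had 66186 reads and was left out of the muscle comparison.

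Among strong brains, hsp90aa1.1 ranged from 207.8 to 1447.3 CPM. In BTS it stood at 306.3, 488.4 and 996.2 CPM, and in CTS at 277.3 and 788.6 CPM. In F1 the strong brains had 207.8, 333.1, 423.3, 753.0, 799.6 and 1447.3 CPM. In every genotype the strong brains lay far apart from each other.

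Among weak brains the level was 71.8, 79.0 and 125.2 CPM in BTS, 65.5, 107.3 and 140.5 CPM in CTS, and 54.5, 167.9 and 172.9 CPM in F1. The class medians were 488 CPM (strong), 107 CPM (weak) and 57.1 CPM in the 22 control brains without animal 64, whose range was 43.3 to 71.0 CPM. The strong brain nearest the boundary, F1 animal 87, had 207.8 CPM, and the weak brain nearest to it, F1 animal 67, had 172.9 CPM. The values run on without a wide gap at 200 CPM, so the classes are ranges of the same distribution. Still, 7 of the 9 weak brains lay above the highest of these 22 controls. The control brain of backcross animal 26, which was not classed, had 91.6 CPM, above the weak BTS brains at 71.8 and 79.0 CPM.

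**Figure D1:**
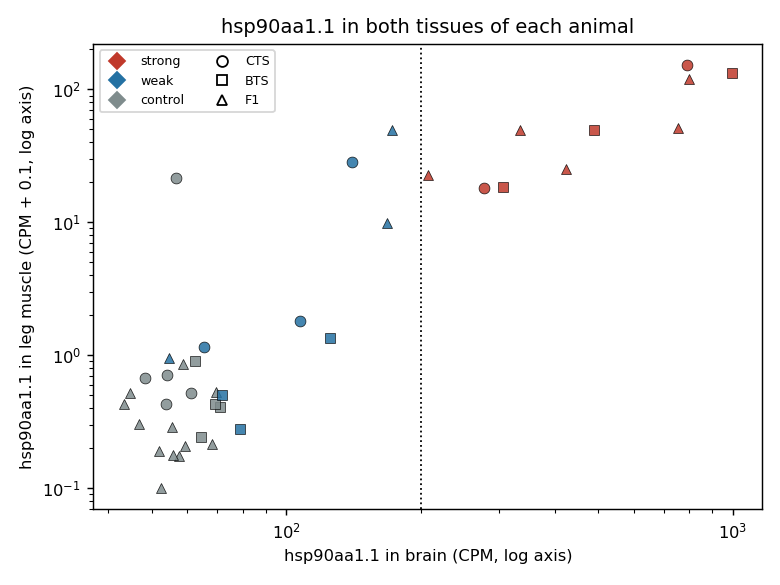
hsp90aa1.1 in brain (horizontal, CPM, log axis) against leg muscle (vertical, CPM + 0.1, log axis), 1 point per animal, for strong, weak and control animals, with genotype as the marker shape, the 200 CPM boundary as the dotted line and animal 64 left out. Strong brains lie at 207.8 CPM and above by the rule, and the muscle of weak animals reaches from 0.178 to 49.5 CPM.

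Few other features passed the test between the classes, and their number depended on the settings, as given in the last section. With genotype in the model, 13 of 13975 tested features differed between strong and weak brains at an adjusted p under 0.05, which is 0.093% of the features. Of these, 10 were higher in strong brains (0.0716%) and 3 were lower (0.0215%). In all, 598 features had an unadjusted p under 0.05, a smaller share than the 0.05 that evenly spread p-values would give. The same is true of every later count of features at an unadjusted p under 0.05, so these counts show no wider signal. The median feature differed by 0.02 on the log2 scale and 53.8% of features were higher in strong brains. Those with the smallest p among the higher features were heat shock genes or of unknown name, followed by rapidly induced regulators.

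DNAJB1 (AMEXTC_0340000121396), the DNAJ co-chaperone that hands unfolded clients to HSP70 and speeds its ATPase cycle, had the smallest p. It had 149, 333 and 550 CPM (lowest, median, highest) in strong brains, 59.4, 72.9 and 126 CPM in weak brains and 47.6, 66.3 and 91.8 CPM in control brains, where control values leave out animal 64 here and for every gene that follows. Every strong brain lay above every weak one, which held for 3 of the tested features (0.0215%). In edgeR's quasi-likelihood test the difference was 2.03 on the log2 scale (SE 0.28, adjusted p = 0.00443). In BTS alone the strong brains had 149, 333 and 550 CPM and the weak ones 82.3, 72.9 and 63.5 CPM, and in CTS the strong brains had 154 and 508 CPM against 59.7, 61.3 and 121 CPM in weak brains. As the classes did not overlap at all, their order inside each parental genotype could not differ.

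hspb6 (AMEXTC_0340000142481), a small heat shock protein that is abundant in muscle and holds unfolding proteins in solution, had the largest called difference. Strong brains had 120, 669 and 1069 CPM, weak brains 14.4, 34.6 and 127 CPM, and control brains 10.04, 17.6 and 33.7 CPM. Of 11 strong brains, 10 lay above the highest weak brain, and the exception was BTS animal 78, at the bottom of the strong class with 120 CPM. The log2 difference was 3.38 (SE 0.49, adjusted p = 0.00443). hspb6 is also a muscle gene, and without animal 7, the brain with the high muscle marker sum, the difference was 3.11 (adjusted p = 0.0348). The 6 strong F1 brains had 197 to 1058 CPM of hspb6.

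A pair of features for which the deposited table gives only the truncated name "heat" behaved in the same way. The first, AMEXTC_0340000248058, had 611, 1363 and 2371 CPM in strong brains, 142, 327 and 523 CPM in weak brains and 64.8, 121 and 187 CPM in control brains, and the strong and weak ranges did not overlap. Its log2 difference was 2.14 (SE 0.31, adjusted p = 0.00443). The second, AMEXTC_0340000125485, had 1349, 4125 and 9048 CPM in strong brains, 131, 455 and 1537 CPM in weak brains and 4.60, 11.5 and 105 CPM in control brains. Here F1 animal 67 of the weak class, at 1537 CPM, overlapped the strong class, whose lowest brain was CTS animal 4. The log2 difference was 2.85 (SE 0.45, adjusted p = 0.00879). No protein name is used here for either feature beyond that word. Of 3 further features with this name, AMEXTC_0340000055673 had 0.462, 5.51 and 41.2 CPM in strong brains against 0, 0.339 and 2.76 CPM in weak brains, a difference of 3.16 that missed the threshold (adjusted p = 0.0921). AMEXTC_0340000164499 differed by 0.11 (adjusted p = 0.996), and AMEXTC_0340000178502 was too low to test.

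LOC103612238 (AMEXTC_0340000124767) had 87.9, 119 and 390 CPM in strong brains, 14.9, 36.05 and 63.8 CPM in weak brains and 9.78, 13.6 and 18.8 CPM in control brains, again with no overlap between strong and weak. Its log2 difference was 2.31 (SE 0.35, adjusted p = 0.00633). Its identifier is close in number to that of hsp90aa1.1, and so is that of AMEXTC_0340000124757, named only "nucleotide-binding". Whether these features share a locus or reads with hsp90aa1.1 is not given in the sources used here, so their values may not be independent of the gene that made the classes. The nucleotide-binding feature had 23.5, 48.2 and 104 CPM in strong brains, 2.44, 21.2 and 35.8 CPM in weak brains and 0.520, 3.21 and 7.05 CPM in control brains. Its difference of 1.69 did not pass (adjusted p = 0.146).

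**Figure D2:**
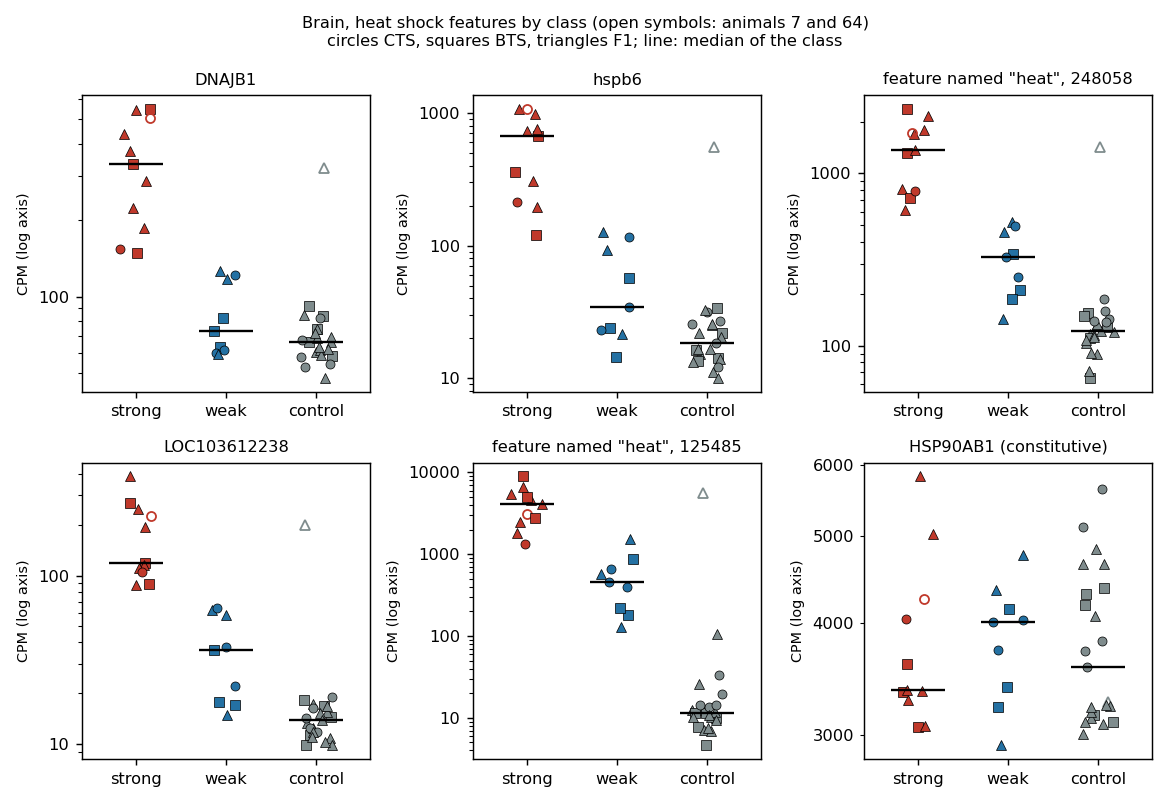
Levels of 5 called heat shock and related features and of HSP90AB1 in each brain library, in CPM on a log axis, for the 11 strong, 9 weak and 23 control brains, with the median as the line, genotype as the marker shape and open symbols for animals 7 and 64. DNAJB1, the "heat" feature AMEXTC_0340000248058 and LOC103612238 separate strong from weak brains without overlap, and in the "heat" feature AMEXTC_0340000125485 the weak brains also stand above the controls other than animal 64.

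No other feature of the chaperone lists passed the test. Of the HSP90 system, which takes in the other HSP90 forms and their co-chaperones, 11 of 13 features were tested, 7 higher and 4 lower in strong brains, with a median difference of 0.01 and none called, and without animal 7 the count was 5 higher and 6 lower. The constitutive cytosolic form HSP90AB1 had 3068, 3369 and 5833 CPM in strong brains, 2923, 4012 and 4765 CPM in weak brains and 3008, 3652 and 5643 CPM in control brains, a log2 difference of 0.03 with adjusted p = 0.997. HSP90B1, the form of the endoplasmic reticulum, differed by 0.01 (adjusted p = 0.998). The co-chaperones STIP1, which links HSP70 to HSP90, and AHSA1, which stimulates the HSP90 ATPase, differed by -0.06 and 0.05. FKBP5, an HSP90 partner in steroid receptor complexes, differed by 0.41 (adjusted p = 0.996).

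Of the HSP70 and HSP110 list, 17 of 22 features were tested, 9 higher and 8 lower in strong brains, with none called. No feature of this list was named for a heat-inducible cytosolic HSP70, so the list does not show how that form behaved. BAG3, a co-chaperone that is heat-inducible in mammals, had 87.1, 96.9 and 179 CPM in strong brains, 75.8, 95.3 and 129 CPM in weak brains and 59.8, 88.7 and 118 CPM in control brains, a log2 difference of 0.18 (adjusted p = 0.996). The endoplasmic reticulum chaperone hspa5 differed by 0.13, and the mitochondrial HSPA9 feature AMEXTC_0340000247133 by -0.13. HSPH1 and both features named HSPA2 without a suffix were too low to test. A further feature of this list, named HSPA2_2, was not called. HSF1, the factor that drives the heat shock response, differed by -0.12 in its mRNA (adjusted p = 0.996). Of the 27 tested DNAJ features, 18 were higher and 9 lower, and DNAJB1 alone was called; a second DNAJB1 feature (AMEXTC_0340000062968) was too low to test.

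All 4 small heat shock protein features were tested and all 4 were higher in strong brains, with a median difference of 0.99, but hspb6 alone was called. HSPB7, a small heat shock protein of heart and skeletal muscle, had 5.12, 9.33 and 159 CPM in strong brains, 2.60, 8.27 and 12.1 CPM in weak brains and 0.934, 9.78 and 27.8 CPM in control brains. The 159 CPM belonged to animal 7, whose muscle marker sum is given above, and the HSPB7 difference was 1.35 with that library and 0.32 without it. Without animal 7, 3 of the 4 features were higher and the median was 0.32. In bulk tissue, fewer cells of a type and less RNA per cell cannot be told apart.

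The other features called higher in strong brains included regulators that are known to be induced quickly by stimulation or stress. DDIT4, an inhibitor of mTORC1 that is induced by many stresses, had 90.2, 173 and 260 CPM in strong brains, 53.7, 76.2 and 101 CPM in weak brains and 33.6, 59.5 and 95.6 CPM in control brains. Its log2 difference was 1.16 (SE 0.19, adjusted p = 0.0111), and without animal 7 the adjusted p was 0.0600. NR4A1, an orphan nuclear receptor and immediate early gene, had 34.7, 87.1 and 165 CPM in strong brains, 12.0, 29.1 and 62.0 CPM in weak brains and 11.3, 42.8 and 75.7 CPM in control brains. The difference in NR4A1 was 1.64 (SE 0.31, adjusted p = 0.0398). The NR4A1 range of weak brains lay within that of controls, and 8 of 11 strong brains lay above the highest weak brain.

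PTGS2, the inducible cyclooxygenase that starts prostaglandin synthesis, had 6.55, 14.8 and 33.1 CPM in strong brains, 2.17, 5.43 and 10.4 CPM in weak brains and 1.61, 5.91 and 10.6 CPM in control brains. Its log2 difference was 1.66 (SE 0.30, adjusted p = 0.0312). FAM46B, which in mammals encodes a non-canonical poly(A) polymerase, had 36.3, 54.2 and 108 CPM in strong brains and 24.4, 32.5 and 40.8 CPM in weak brains, a difference of 1.06 (SE 0.20, adjusted p = 0.0448). ATF7, a transcription factor of the CREB and ATF family, had 2.44, 4.72 and 7.27 CPM in strong brains and 1.09, 2.98 and 4.80 CPM in weak brains, a difference of 0.97 (SE 0.18, adjusted p = 0.0417). Strong and weak ranges overlapped for PTGS2, ATF7 and FAM46B, as they did for DDIT4 and NR4A1.

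The 3 features lower in strong brains included 2 genes of mRNA handling. ALYREF, the adaptor that loads spliced mRNA onto the export machinery, had 27.1, 37.1 and 45.3 CPM in strong brains, 49.6, 62.4 and 105 CPM in weak brains and 29.0, 66.5 and 86.6 CPM in control brains. Every strong brain lay below every weak brain, which held for this feature alone among those tested (0.00716%). Its log2 difference was -0.79 (SE 0.13, adjusted p = 0.00879). In BTS the strong brains had 44.5, 38.2 and 34.6 CPM of ALYREF against 54.3, 88.4 and 105 CPM in weak brains.

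CLK2, a kinase that phosphorylates SR splicing factors, had 32.0, 42.8 and 54.6 CPM in strong brains, 48.1, 70.6 and 92.2 CPM in weak brains and 56.2, 75.8 and 102 CPM in control brains. All 11 strong brains lay below the lowest control other than animal 64, which had 39.7 CPM. The share of all features for which this held was not computed. The CLK2 difference between strong and weak was -0.65 (SE 0.12, adjusted p = 0.0414). LOC106731858, for which the files give no protein name, had 0.925, 8.61 and 22.7 CPM in strong brains, 4.24, 22.0 and 107 CPM in weak brains and 5.61, 44.0 and 84.95 CPM in control brains. Its difference was -1.96 (SE 0.34, adjusted p = 0.0207), and the strong and weak ranges overlapped.

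**Figure D3:**
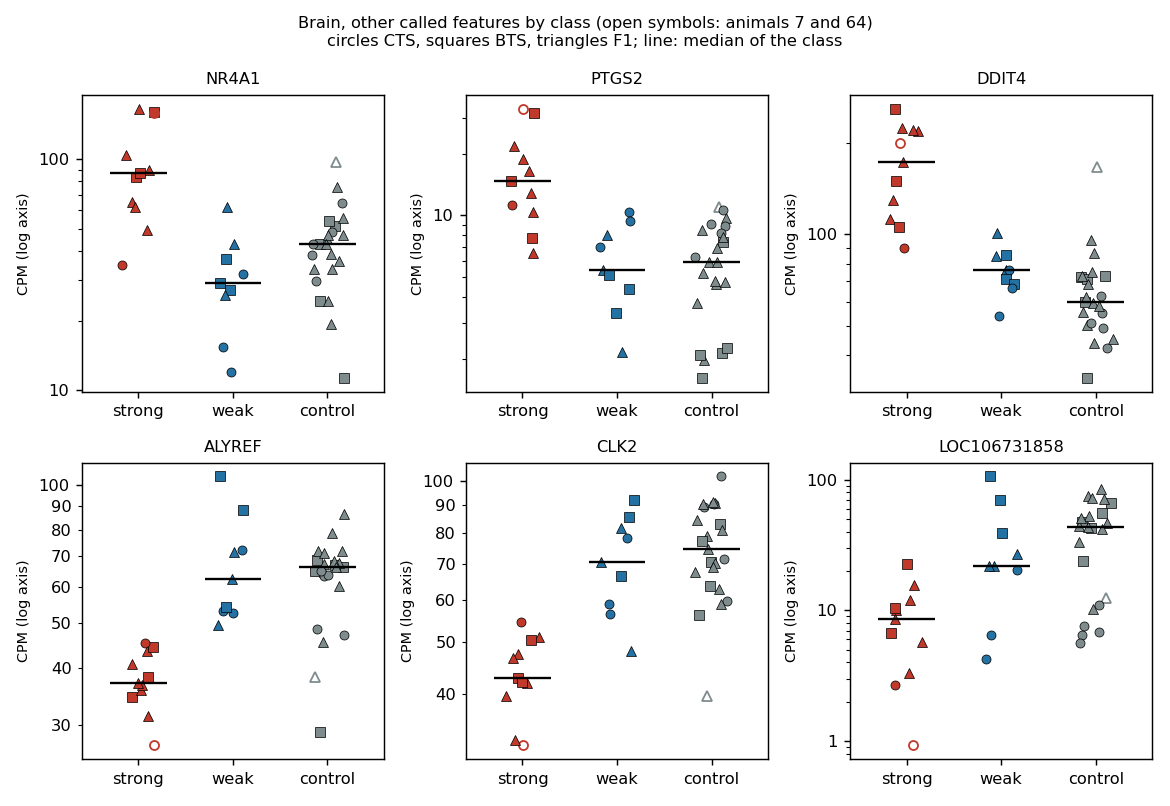
Levels of rapidly induced genes called higher in strong brains and of genes called lower, in CPM on a log axis, 1 point per brain library of the strong, weak and control groups, with the median as the line, genotype as the marker shape and open symbols for animals 7 and 64. NR4A1 and PTGS2 of weak brains lie within the control range, and ALYREF of all strong brains lies at 45.3 CPM or below while weak brains start at 49.6 CPM.

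Immediate early genes, which are transcribed within minutes of a stimulus without new protein, leaned higher in strong brains as a list, with 1 member passing. Of 38 features 32 were tested, 26 higher and 6 lower in strong brains, with a median of 0.31 against 0.02 over all tested features, and the one called was NR4A1. JUN, a subunit of the AP-1 transcription factor, had 19.7, 53.4 and 146 CPM in strong brains and 12.9, 17.8 and 25.9 CPM in weak brains, a difference of 1.64 with adjusted p = 0.0678. DUSP1, a phosphatase that shuts off MAP kinases, had 21.0, 48.9 and 181 CPM in strong brains and 17.1, 22.2 and 35.6 CPM in weak brains, a difference of 1.68 with adjusted p = 0.0930. FOSL1 differed by 1.51 (adjusted p = 0.425) and fos.L by 0.88 (adjusted p = 0.602). Without animal 7 the list still had 26 higher and 6 lower features, with a median of 0.19 and none called. Of the growth arrest list 15 of 17 tested features were higher in strong brains, DDIT4 alone was called, and GADD45B differed by 0.95 with adjusted p = 0.0906.

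Lists of abundant housekeeping genes leaned one way with no member called. Of 61 features of cytosolic ribosomal proteins 50 were tested and 49 were higher in strong brains, with a median of 0.42, and without animal 7 the count was again 49 of 50 with a median of 0.19. Of 29 tested oxidative phosphorylation features 26 were higher (median 0.16), and without animal 7 it was 25 of 29 (median 0.07). Of 40 tested ubiquitin and proteasome features 36 were higher (median 0.11), and without animal 7 again 36 (median 0.08). Of 33 tested RNA-binding and splicing features 12 were higher and 21 lower (median -0.07), with CLK2 the one called. Against the 23 controls, weak brains had 52 of 54 tested ribosomal features lower (median -0.24) and 27 of 29 oxidative phosphorylation features lower (median -0.15). Strong brains had 47 of 54 ribosomal features higher (median 0.21) and 23 of 29 oxidative phosphorylation features higher (median 0.05). Without animals 7 and 64 these strong medians were 0.05 and -0.02. Members of such lists vary together, so a lean of this kind is a description of these libraries.

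Of the cell type lists, 10 of 11 tested oligodendrocyte features were lower in strong brains, with a median of -0.31, and 9 of 11 without animal 7, with a median of -0.14. Of 25 tested neuron features 8 were higher and 17 lower (median -0.06), but without animal 7 it was 13 higher and 12 lower (median 0.01), so the direction rests on that library. Of the 31 skeletal muscle features 11 could be tested, 10 of them higher in strong brains with a median of 1.36. Without animal 7, 10 could be tested, 7 higher and 3 lower, with a median of 0.12. The part of cell make-up in the called genes was not tested.

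**Figure D4:**
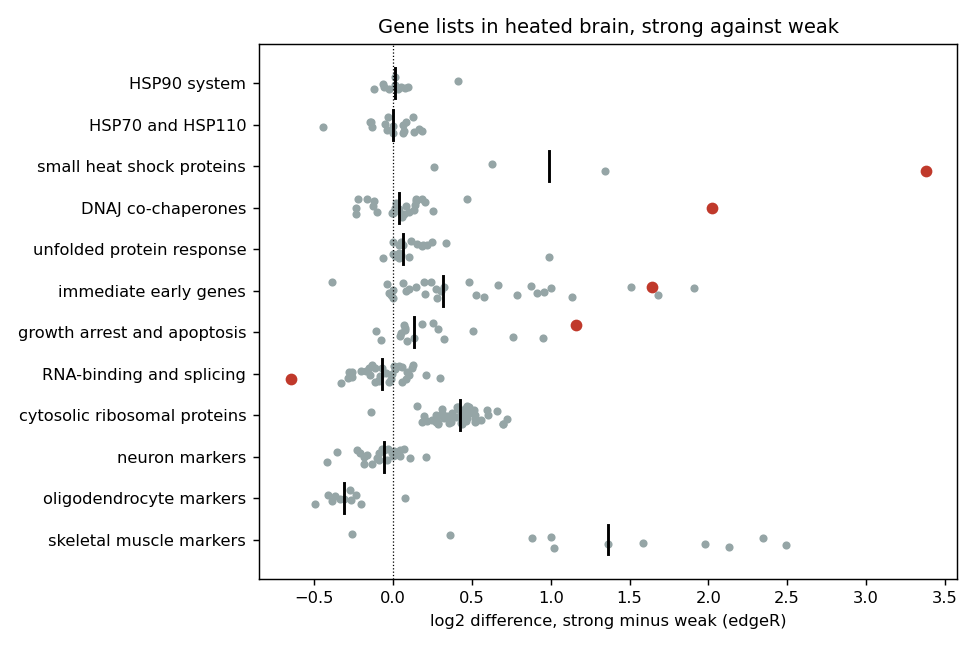
Log2 difference between strong and weak brains for each tested feature of 12 gene lists, 1 point per feature, with called features in red and the median of the list as the vertical bar. Cytosolic ribosomal proteins have a median of 0.42 and oligodendrocyte markers of -0.31, while the HSP90 and HSP70 lists sit at about 0. The HSP70 list holds no feature named for a heat-inducible cytosolic HSP70.

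The called genes named next had the same sign of difference in each genotype. They were picked as called in these same brains, so a shared sign is partly set by that choice. For DNAJB1 and ALYREF, whose strong and weak ranges did not overlap, that sign was fixed beforehand. As differences of mean log2(CPM + 1), strong minus weak, DNAJB1 gave 1.86 in CTS, 2.04 in BTS and 1.73 in F1, and hspb6 gave 3.37, 3.44 and 3.14 in the same order. ALYREF gave -0.73, -1.01 and -0.68, and CLK2 gave -0.60, -0.83 and -0.60. NR4A1 gave 1.98 in CTS, 1.74 in BTS and 0.99 in F1. A test of the class difference between genotypes called 0 features in edgeR, with 211 at an unadjusted p under 0.05 for F1 against BTS and 211 for CTS against BTS. In F1 brains alone, and in CTS and BTS brains alone, edgeR called 0 features between the classes.

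Single libraries decided part of the called set. Leaving out each of the 20 brains in turn gave between 6 and 25 called features, the fewest without CTS animal 7 and the most without CTS animal 4. The count was 7 without animal 38, 53, 86 or 90, and 8 without animal 11, 20, 22 or 75. DNAJB1, hspb6, both called "heat" features, LOC103612238 and ALYREF were called in all 20. DDIT4 lost its call without animal 7 only, and LOC106731858 without animal 7, 38, 53, 86 or 90. PTGS2 kept its call in 8 of 20, NR4A1 in 6, CLK2 in 5 and ATF7 and FAM46B in 4 each. Without animals 7 and 76 together, the 2 CTS brains in doubt, 0 features were called by edgeR, 326 had an unadjusted p under 0.05, and the smallest adjusted p was 0.0559.

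Over the 20 heated brains, the genes most like hsp90aa1.1 were ranked by the correlation of log2(CPM + 1) after genotype means were taken out, among 11476 features with a mean of at least 5 CPM. LOC103612238 came first with r = 0.989, then the "heat" feature AMEXTC_0340000248058 with 0.986, hspb6 with 0.970, DNAJB1 with 0.967, PTGS2 with 0.940 and the "heat" feature AMEXTC_0340000125485 with 0.935. SOX4, a transcription factor of progenitor cells, had 0.916 and PPP1R10, a nuclear targeting subunit of protein phosphatase 1, had 0.915. The most opposed features were LOC109922399 at -0.903, ST8SIA1, a ganglioside sialyltransferase, at -0.863 and RBM10, a splicing regulator, at -0.849. These values describe points that share libraries and their scaling, and the top of the ranking was chosen for its size.

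Set against unheated brains, the strong class differed in more features. That class was chosen for a high hsp90aa1.1 level, so differences of genes that vary with that level are partly set by the rule. The comparison held 11 strong and 23 control brains, against 11 strong and 9 weak brains above, so the counts are not like for like. Of 15050 features, 113 were called (0.751%), 63 higher in strong brains (0.419%) and 50 lower (0.332%), with a median difference of 0.01. DNAJB1 was higher by 2.17 (adjusted p = 8.37e-09), the "heat" feature AMEXTC_0340000248058 by 3.07, LOC103612238 by 3.16, hspb6 by 4.01 (adjusted p = 4.00e-07) and DDIT4 by 1.43 (adjusted p = 3.55e-08), all on the log2 scale. GADD45B, a stress gene of DNA repair and growth arrest, was higher by 1.36 (adjusted p = 4.79e-07) and had 10.5, 17.9 and 23.5 CPM in strong brains against 1.61, 6.38 and 9.93 CPM in control brains. Without animal 64 the ranges of GADD45B did not overlap, but animal 64 had 15.4 CPM, inside the strong range. The share of all features without overlap between strong and control brains was not computed. Without control animal 64 the differences were 2.38 for DNAJB1, 3.58 for the "heat" feature AMEXTC_0340000248058, 3.74 for LOC103612238, 4.92 for hspb6, 1.52 for DDIT4 and 1.44 for GADD45B. Without control animal 64 the count was 129, without strong animal 7 it was 65, without strong animal 38 it was 71, and without animals 7 and 64 together it was 80.

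Of the 63 features higher in strong than in control brains, 14 were immediate early genes. Of 32 tested features 29 were higher in strong brains with a median of 0.34, and the 14 called were all higher. Over all tested features the share called higher was 0.419%. Without animals 7 and 64 together, 11 immediate early genes were called. FOSL1 was higher by 2.11 (adjusted p = 3.39e-05), with 1.19, 5.52 and 12.2 CPM in strong brains against 0.173, 1.06 and 2.46 CPM in control brains. FOSB was higher by 1.80, fos.L by 1.52, DUSP1 by 1.46, JUN by 1.42, Klf4 by 1.35, ATF3 by 1.20 and NR4A1 by 1.18. arc, a synaptic immediate early gene of neurons, was higher by 0.99 and had 155, 193 and 499 CPM in strong brains against 54.5, 113 and 252 CPM in control brains. The remaining called members were FOSL2, EGR4, CSRNP1, DUSP5 and KLF6, at 0.81, 0.74, 0.69, 0.67 and 0.36. SERPINH1, the collagen chaperone HSP47, was higher by 0.84, and NFKBIA, the inhibitor of NF-kappa-B, by 1.04. SERPINH1 was not called without animals 7 and 64.

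Among the features lower in strong than in control brains were 4 of 36 tested RNA-binding and splicing genes. Over all tested features the share called lower was 0.332%. CLK2 had a log2 difference of -0.74 (adjusted p = 3.50e-05) and CLK4, a related kinase, had -0.53 (adjusted p = 3.88e-05). CLK4 stood at 139, 209 and 258 CPM in strong brains and 197, 309 and 390 CPM in control brains. The splicing factors srsf3 and TRA2B had differences of -0.41 and -0.32. DNAJC10, of the DNAJ list, was also called lower, with -0.35. ALYREF had -0.71, SPEN, a transcriptional corepressor, had -0.51, LOC106731858 had -2.21 and the feature mRNA00712, which has no gene name, had -1.01 (adjusted p = 1.79e-07).

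Fewer features were called between weak brains and controls. The weak class was chosen for a low hsp90aa1.1 level, so for genes that vary with that level this order is partly set by the rule. edgeR called 0 of 15050 features (0%), with 381 at an unadjusted p under 0.05, and DESeq2 called 0, with 424. Control animal 64, whose brain had 322 CPM of DNAJB1 and 552 CPM of hspb6, is part of that comparison. Without it 5 features were called, all higher in weak brains, and 408 had an unadjusted p under 0.05. They were the "heat" feature AMEXTC_0340000125485 at 5.13 (SE 0.38, adjusted p = 1.65e-12), the nucleotide-binding feature AMEXTC_0340000124757 at 2.60 (adjusted p = 2.28e-07), LOC103612238 at 1.41 (adjusted p = 0.000366), the "heat" feature AMEXTC_0340000248058 at 1.39 (adjusted p = 2.60e-05) and hspb6 at 1.49 (adjusted p = 0.0470).

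Several of these features stood above every control other than animal 64 in most weak brains. The called ones were picked for being higher in weak brains, and the share of all features standing so was not computed. Of 9 weak brains, 9 lay above the highest of the 22 other controls for AMEXTC_0340000125485, 8 for AMEXTC_0340000248058, 7 for the nucleotide-binding feature, 6 for LOC103612238, 5 for hspb6 and 3 for DNAJB1. DNAJB1 differed by 0.35 between weak and control brains without animal 64 (adjusted p = 0.997). In weak brains 19 immediate early features were higher than in controls and 13 lower, with a median of 0.03. Strong and weak brains were compared with the same controls, and their direct comparison is the one given first.

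Leg muscle of the same animals was not used to make the classes. In muscle, hsp90aa1.1 was higher in animals of the strong brain class. Strong BTS animals had 18.3, 49.0 and 132.4 CPM, strong CTS animals 17.9 and 152.3 CPM, and strong F1 animals 22.8, 25.2, 49.8, 51.3 and 119.5 CPM. Weak BTS animals had 0.178, 0.40 and 1.24 CPM, weak CTS animals 1.0, 1.7 and 28.4 CPM, and weak F1 animals 0.8, 9.7 and 49.5 CPM. Muscle of 20 controls had 0, 0.318 and 0.802 CPM, and animal 66, a further control, had 21.5 CPM. All 10 strong animals lay above 7 of the 9 weak ones, and weak CTS animal 14 and weak F1 animal 67 overlapped the strong range.

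The mean log2(CPM + 1) of hsp90aa1.1 in muscle was 5.60 ± 1.16 in strong animals (SD, n = 10) and 2.13 ± 2.00 in weak animals (SD, n = 9). The difference of 3.47 had p = 0.000801 in a two-sided exact permutation test, and 3.30 with p = 0.000498 after genotype means were taken out. Across the 19 animals the muscle level followed the brain level with Pearson r = 0.907 and Spearman rho = 0.902, each with p = 1e-05, the smallest that 100000 permutations can give. Without F1 animal 22 and BTS animal 38, the 2 farthest from the median brain level, r was 0.883. Within strong animals r was 0.875 (permutation p = 0.0017, n = 10) and within weak animals 0.803 (exact permutation p = 0.0082, n = 9). Within genotypes it was 0.993 in 6 BTS animals (exact permutation p = 0.0028) and 0.865 in 8 F1 animals (exact permutation p = 0.0061), and CTS had too few. After Benjamini-Hochberg adjustment over the 8 relations computed, the p-values for r lay between 2e-05 and 0.0082 and those for rho between 2.7e-05 and 0.017.

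Few other muscle genes passed with the brain classes. Of 10773 tested features 1 was called (0.00928%), and 325 had an unadjusted p under 0.05. The called feature was DNAJB1, with 35.7, 102 and 179 CPM in muscle of strong animals and 6.73, 13.1 and 50.3 CPM in muscle of weak animals. Its difference was 2.66 (SE 0.38, adjusted p = 0.00742), and without animal 7 the adjusted p was 0.0568. Of 10 strong animals 9 lay above the highest weak animal. DNAJB1 was therefore called in both tissues.

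The "heat" feature AMEXTC_0340000125485 had 423, 842 and 2089 CPM in muscle of strong animals and 9.51, 76.6 and 711 CPM in muscle of weak animals, a difference of 3.33 that did not pass (adjusted p = 0.175). The "heat" feature AMEXTC_0340000248058 differed by 1.76 (adjusted p = 0.307) and LOC103612238 by 3.66 (adjusted p = 0.386). In the same fit hsp90aa1.1 itself differed by 3.66 (SE 0.93, adjusted p = 0.788), although the exact permutation test on its own level passed. hspb6, which muscle expresses in every animal, differed by 0.09 in muscle (adjusted p = 1.0) and by 3.38 in brain.

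**Figure D5:**
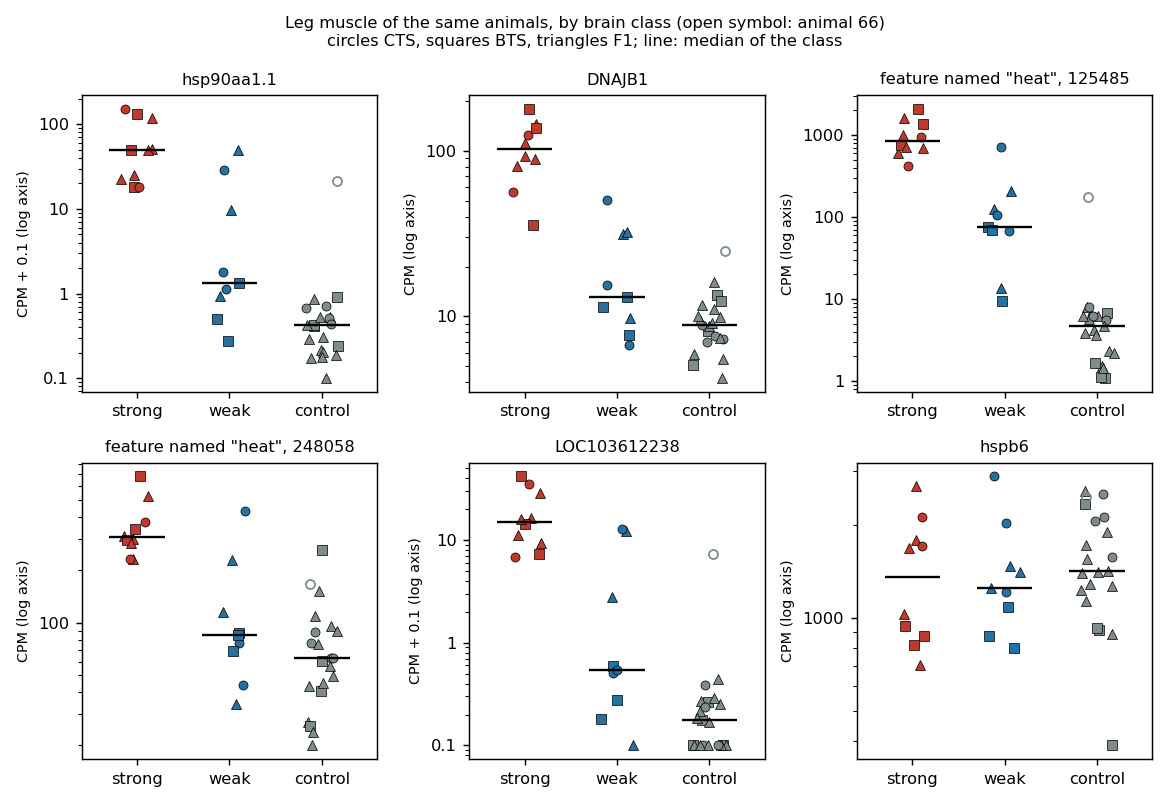
Levels of heat-responsive features in leg muscle of the animals classed by brain, in CPM on a log axis (CPM + 0.1 where a library had no read), 1 point per animal, for strong, weak and control animals, with the median as the line, genotype as the marker shape and an open symbol for animal 66. DNAJB1 lies at 35.7 to 179 CPM in strong animals and 6.73 to 50.3 CPM in weak animals, whereas hspb6 lies at like levels in all groups.

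Whether strong minus weak differed between brain and muscle was tested directly. In edgeR 0 of 14933 features passed, with 637 at an unadjusted p under 0.05. For hspb6 the brain difference exceeded the muscle difference by 3.21 (SE 0.59, adjusted p = 0.0598). That fit had no term for the animal, although brain and muscle came from the same animals. With the animal as a replicate block in edgeR, the hspb6 difference was 3.18 (adjusted p = 0.267). No gene can therefore be called particular to brain from these libraries.

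In muscle the ribosomal and oxidative phosphorylation lists leaned the other way, while the immediate early list leaned as in brain. Whether the lean of a list differed between the tissues was not tested. Of 54 tested ribosomal protein features 6 were higher and 48 lower in strong animals (median -0.33), and of 31 tested oxidative phosphorylation features 5 were higher and 26 lower (median -0.22). Of 22 tested immediate early features 19 were higher and 3 lower (median 0.31), with none called, and the median over all tested muscle features was 0.02.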

How the data were processed

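Exon counts per feature were deposited as whole-number tables of brain and of leg muscle. Reads were trimmed with Trimmomatic, checked with FastQC, aligned with STAR and counted with HTSeq, per the submitters' processing notes; versions, reference build and strand setting were not stated in what was used here. The authors' counts were used as deposited: 23251 features, 975 of them without a gene name, in 48 brain and 50 muscle columns. Many names are truncated, and near-identical copies of a gene may have shared or lost reads, so members of gene families are uncertain.

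The classes, members and gene lists were chosen with earlier results of these data known. Levels are CPM of the library total. Features were tested with edgeR 4.0.16 (R 4.3.3, limma 3.58.1): TMM scaling, filterByExpr on class, quasi-likelihood test with genotype as covariate, Benjamini-Hochberg adjustment over all tested features, threshold 0.05. The feature hsp90aa1.1 was removed before scaling in brain and joint fits and kept in muscle. A standard error is the log2 difference divided by the square root of F. Single values were compared by exact permutation, or by 100000 permutations (scipy 1.17.1), on log2(CPM + 1). Alternatives were DESeq2 1.42.0, RLE scaling, other filters, other class boundaries, the continuous level, genotype subsets, sex as covariate, and leaving out libraries; those added after seeing the data were the fit without animal 64 with sex, the genotype interaction, the fit without animals 7 and 64, and the lists and marker sums without animal 7. The scripts were tested on simulated counts.

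Named features are the heat shock lists and features named in earlier results whatever their result, up to 10 per direction with the smallest p among called features with at least 5 CPM (6 for other comparisons), and for each list its most abundant member and that with the smallest p; further called list members are named because they passed. Depths were 3213005 to 13506066 reads in brain and 1232774 to 20068304 in muscle, so features of a few CPM rest on few reads. Animals carry the same number in both tissues, and the numbers pair brain and muscle of an animal; the mean correlation of their deviations was 0.131, over 0.1 in 10 of 19 animals. Counts of every replicate pair differed by more than sampling noise, the smallest ratio of chi-square to degrees of freedom being 11.1 in brain and 39.7 in muscle. The labels do not say how animals were housed or batched. A brain library of 5418 reads was left out.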

Additional observations from a re-analysis of the deposited data

Results flagged for a closer look

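In leg muscle of the weak class, FAM46B of F1 animal 67 stood at 7.30 CPM, far below the nearest other weak animal, CTS animal 13 at 37.5 CPM. That library is the shallowest of the muscle libraries used, with 1232774 reads. It was flagged as a sample far from the rest of its group; 55 groups were examined, and chance flags about 1 in 20 groups.

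Heated brains of the backcrosses tagged BTSbc were not classed, and both held more hsp90aa1.1 than every control brain but that of animal 64, which is tagged control in brain and heated in muscle and had 624.1 CPM. The next highest control brain, BTSbc animal 26, had 91.6 CPM. Animal 30 had 383.0 CPM, with 185 CPM of DNAJB1, 357 CPM of hspb6 and 41.6 CPM of ALYREF. Animal 12 had 173.5 CPM, with 143 CPM of DNAJB1, 120 CPM of hspb6 and 49.4 CPM of ALYREF. The heated brain of CTSbc animal 84, also not classed, had only 36.4 CPM of hsp90aa1.1. It had 68.2 CPM of DNAJB1, 14.6 CPM of hspb6 and 52.5 CPM of ALYREF. Titles give animals 30 and 84 as F1 and animals 12 and 26 as BTS. No test was made of the 2 heated BTSbc brains against 1 control brain of that genotype tag.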

How the results depend on the processing

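Against the 13 features called between strong and weak brains, DESeq2 called 38, all 13 among them. The count was 8 with sex added, 39 with the continuous hsp90aa1.1 level, 30 with controls in the fit as a further class, 0 with the boundary at 100 CPM, 28 at 300 CPM and 36 at 400 CPM. It was 0 in F1 alone, 0 in CTS and BTS alone, and 0 without animals 7 and 76; leaving out 1 brain gave 6 to 25. In muscle the count of 1 became 8 with DESeq2, 2 with no filter, 13 with the continuous level and 0 with the boundary at 100 or 400 CPM; leaving out 1 animal gave 0 to 2. Strong against control brains gave 46 instead of 113 at 100 CPM, and 65 to 131 leaving out 1 brain. Weak against control brains gave 5 without animal 64, 5 (4 higher, 1 lower) with sex added as well, and 1 at 400 CPM, instead of 0. For these counts the cause was not tested. No called difference changed direction under any alternative run, while some differences near 0 that were not called did, and without animal 7 so did the medians of the neuron list (0.01, against -0.06) and of the HSP90 system (-0.0005, against 0.01). Of their settings, 155 lost a call and 31 gained one. The difference between brain and muscle called 0 features without and 0 with the animal as a replicate block (553 at an unadjusted p under 0.05), where hspb6 had an adjusted p of 0.267. The classes hold 11 and 9 animals, and the boundary cuts a continuous range.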
